A study of Mus musculus with 14 samples.

Results

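Splenic CD8+ T cells of mice labelled ENK KO were compared with those of wild type (WT) mice on 8 of the 14 arrays of the series, 4 for each genotype. The WT arrays carry the numbers 22, 34, 37 and 40 and came from animals 7 months old, of which number 22 was labelled female and the others male. The ENK KO arrays carry the numbers 3 and 6 (2 months, female), 25 (9 months, male) and 31 (7 months, male). ENK KO number 28 (6 months, male) was left out, because it carried Cd4 at 12.20 and Cd8a at 6.78 on the log2 scale, where the other spleen arrays had at most 6.92 and at least 12.06. These 2 genes chose the arrays and are no finding. The other 5 arrays came from thymocytes and enter only where the effect is compared between tissues or the spread is shared with them. They were WT 7 (7 months, labelled female), WT 32 and 38 (7 months, male), ENK KO 1 (2 months, female) and ENK KO 29 (7 months, male).

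All animals were C57BL/6, and the cells were isolated with a cell sorter before RNA extraction. The labels do not spell out ENK, name no allele and do not say whether the deletion reaches every cell. The series title names Engrailed-2, the homeobox transcription factor encoded by En2. Ages of 2 months and the female sex coincide within ENK KO, and no WT animal was younger than 7 months, so genotype and age overlap in part. Every value below is a log2 expression value, and a difference is ENK KO minus WT, so that 1 unit is a factor of 2.

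CD8+ T cells carry the coreceptor that binds MHC class I and give rise to cytotoxic effector and memory cells. Stimulation through the T cell receptor induces within minutes a set of immediate early genes, among them the AP-1 factors of the Fos and Jun families. The spleen is also rich in B cells, red cells, platelets and myeloid cells, and a sorted fraction can hold traces of each. Engrailed proteins are homeodomain factors that bind DNA sites with a TAATTA core and are known mainly from the developing midbrain and cerebellum.

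En2 itself did not separate the genotypes. Its level was 6.93, 6.33, 6.19 and 6.51 in WT 22, 34, 37 and 40, and 6.54, 6.31, 6.12 and 7.87 in ENK KO 3, 6, 25 and 31. The highest of the 8 values belonged to an ENK KO array, number 31, and the groups overlapped. The mean difference was 0.22 (exact two-sided permutation test, p = 0.771; the smallest p that 4 against 4 arrays allow is 0.0286), and it was -0.17 without number 31. The sources used here do not say which part of En2 is deleted or which part the probe set reads, so this level checks no label. En1, the other engrailed gene, differed by 0.03 (exact p = 0.629). Penk, the proenkephalin gene, which the abbreviation could also call to mind, differed by -0.12 (exact p = 0.543), and by 0.02 without WT 34.

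Among T cell genes that did not choose the arrays, Cd8b1, the second chain of the coreceptor, lay between 13.20 and 13.45, and Cd3e, a chain of the receptor complex, between 13.06 and 13.26. Foxp3 and Il2ra, which mark regulatory T cells, stood between 7.34 and 7.48 and between 6.66 and 7.12. The arrays correlated with each other between 0.981 and 0.992 over all genes, without a gap between genotypes (WT with WT from 0.985, ENK KO with ENK KO from 0.984). WT 22, labelled female, had Xist at 5.90, in the range of the arrays labelled male, while ENK KO 3 and 6 had 12.36 and 12.55. Kdm5d, a gene of the Y chromosome, was at 9.85 on WT 22 and between 9.65 and 9.83 on the arrays labelled male. On ENK KO 3 and 6 it was at 5.95 and 5.82. By these genes WT 22 was like the males, and only ENK KO 3 and 6 were like females. WT 40 had the highest share of genes above the level used as a filter, 65.2% against 61.8% to 63.8% on the others.

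No gene passed the test of ENK KO against WT. Of 12622 genes tested with limma, 0 (0.00%) reached a Benjamini-Hochberg adjusted p under 0.05. At an unadjusted p under 0.05 stood 963 genes (7.63%), 499 higher (3.95%) and 464 lower (3.68%) in ENK KO. With each array centred on its median the count was 1221, of which 217 were lower, so the balance of directions depends on the centring. Most of these differences were small: 925 of the 963 were under 0.5. Differences of more than 2-fold were measured for 16 genes and of more than 1.5-fold for 72. The 2 smallest adjusted p, both 0.0631, belonged to Ppbp and Irak3, and the next was 0.627. With a spread shared with the thymus arrays, 2 genes (0.0158%) passed, the same 2. The labels do not say that each array is a separate animal, so every p measures the spread between these samples.

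**Figure D1:**
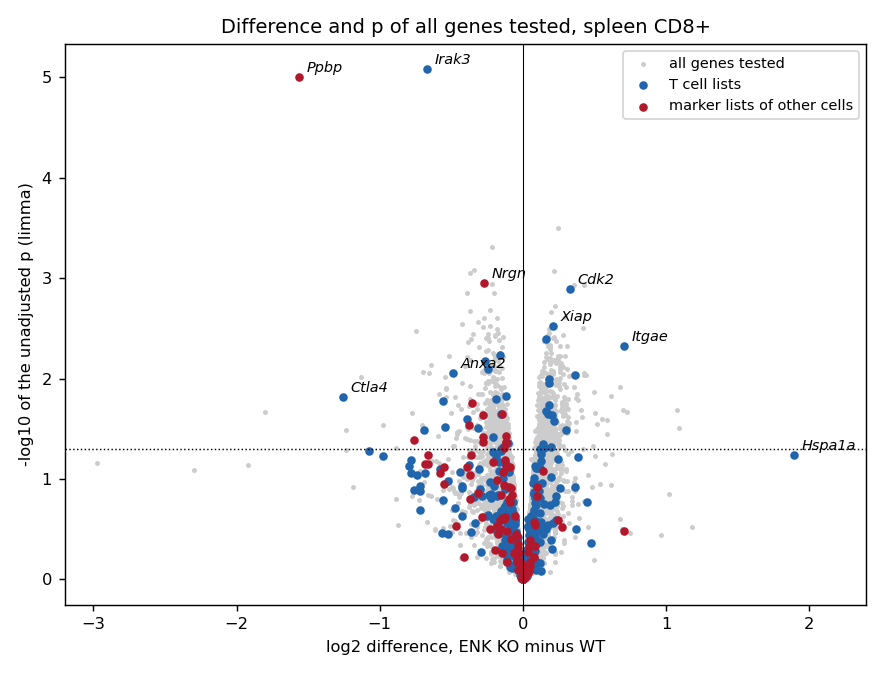
Log2 difference, ENK KO minus WT (horizontal), against -log10 of the unadjusted limma p (vertical) for the 12622 genes tested, with the members of T cell gene lists in blue and of marker lists of other cells in red; the dotted line marks the 0.05 level. Ppbp and Irak3 stand apart at the upper left, and the 13 red points above the line are all left of 0.

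Ppbp encodes pro-platelet basic protein, the precursor of the chemokine CXCL7, which platelets store in their alpha granules. It was the gene with the largest difference among those that did not overlap between genotypes. Its level was 8.42, 8.46, 8.32 and 7.70 in WT and 6.61, 6.95, 6.49 and 6.60 in ENK KO 3, 6, 25 and 31. All 4 ENK KO arrays lay below all WT arrays, and ENK KO 6 came nearest to them. Ppbp exceeded the filter level of 6.76 on 5 of the 8 arrays, in ENK KO only on number 6. It thus entered the test through its WT level, and the fold below is set against values mostly under the filter level. The difference was -1.56 (SE 0.17, 95% confidence interval -1.96 to -1.17; limma adjusted p = 0.0631), a level 2.96-fold lower. The adjusted p passed the threshold with array weights (0.0369), with the shared spread (0.00317) and without WT 40 (0.00521), the WT array nearest to ENK KO. The array left out, number 28, had 7.26, between the groups.

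Pf4, platelet factor 4, lies next to Ppbp on chromosome 5, with start sites 3917 bases apart, and is also an alpha granule chemokine. It did not reach the filter level of 6.76 on any of the 8 arrays: its level was 5.87, 5.98, 6.03 and 5.86 in WT and 5.75, 5.86, 5.72 and 5.73 in ENK KO. Below the filter level Pf4 was not tested, and no difference or lack of one is read from it. The 250 bases before each start site are shown because both genes hold 1 match to GGAAGT, the core that factors of the Ets family bind; they are from RefSeq (GRCm38.p6), on the plus strand, chr5:90768268-90768517 and chr5:90772185-90772434, and the capitals mark the match, which reads ACTTCC on this strand.
Ppbp: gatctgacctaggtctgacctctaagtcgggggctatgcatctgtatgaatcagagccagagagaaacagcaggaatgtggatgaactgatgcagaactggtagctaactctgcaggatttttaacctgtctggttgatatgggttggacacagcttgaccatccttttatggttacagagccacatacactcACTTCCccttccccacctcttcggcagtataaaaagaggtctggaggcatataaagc
Pf4: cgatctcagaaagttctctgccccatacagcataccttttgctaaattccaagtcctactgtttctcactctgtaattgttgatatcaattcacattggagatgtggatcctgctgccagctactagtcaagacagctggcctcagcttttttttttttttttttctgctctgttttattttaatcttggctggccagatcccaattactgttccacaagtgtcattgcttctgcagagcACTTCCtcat

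The match begins 57 bases before the start site of Ppbp and 10 before that of Pf4. Of the 13 platelet markers with such a window, 6 (46.2%) hold GGAAGT on either strand, against 22.2% of all genes with a window. A match is a description of these letters and not a site.

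Irak3 encodes IRAK-M, a kinase-like protein without activity that restrains signalling from Toll-like and interleukin-1 receptors and is best known from monocytes and macrophages. Its level was 7.77, 7.77, 7.53 and 7.77 in WT and 7.13, 7.08, 6.91 and 7.05 in ENK KO. The groups did not overlap, and both were tight. The difference was -0.67 (SE 0.07, 95% confidence interval -0.83 to -0.50; limma adjusted p = 0.0631), or 1.59-fold lower. Without WT 37 it was -0.73 with an adjusted p of 0.0338, and with the shared spread the adjusted p was 0.00472. The array left out, number 28, had 9.74, above every other spleen array, and with it in the fit the difference was -0.13.

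Of 16 tested members of Toll-like receptor and interleukin-1 receptor signalling, Irak3 was the only one at an unadjusted p under 0.05 in either direction, and the median difference was -0.01. Tlr7, a sensor of RNA encoded on the X chromosome, differed by 0.39, with ENK KO 25 at 7.60 and the other 7 arrays between 6.43 and 6.98. Tirap, an adaptor of Tlr2 and Tlr4, differed by -0.14, and Tlr6, which pairs with Tlr2, by 0.23. Of 27 listed monocyte and macrophage markers, 11 were tested and 0 stood at p under 0.05 in either direction. The mean level of all measured markers of this list was 6.48 to 6.69 in WT and 6.33 to 6.65 in ENK KO. The tested markers deviated from their WT mean by 0.16, 0.19, -0.33 and -0.25 on ENK KO 3, 6, 25 and 31 and by -0.10 to 0.15 on the WT arrays. ENK KO 25 and 31 were thus below WT in them, with 8 and 6 of the 11 below every WT array, and without the 2-month-old animals 4 were lower at p under 0.05 (2.69% of all genes in that fit). With the mean level of all measured markers of this list as a covariate, Irak3 differed by -0.64 (limma adjusted p = 0.114), against -0.67 without it. Beyond that fit, the part of these markers in the difference of Irak3 was not tested. Csf1r, the receptor that defines the lineage, was at most 6.81 on all 8 arrays.

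**Figure D2:**
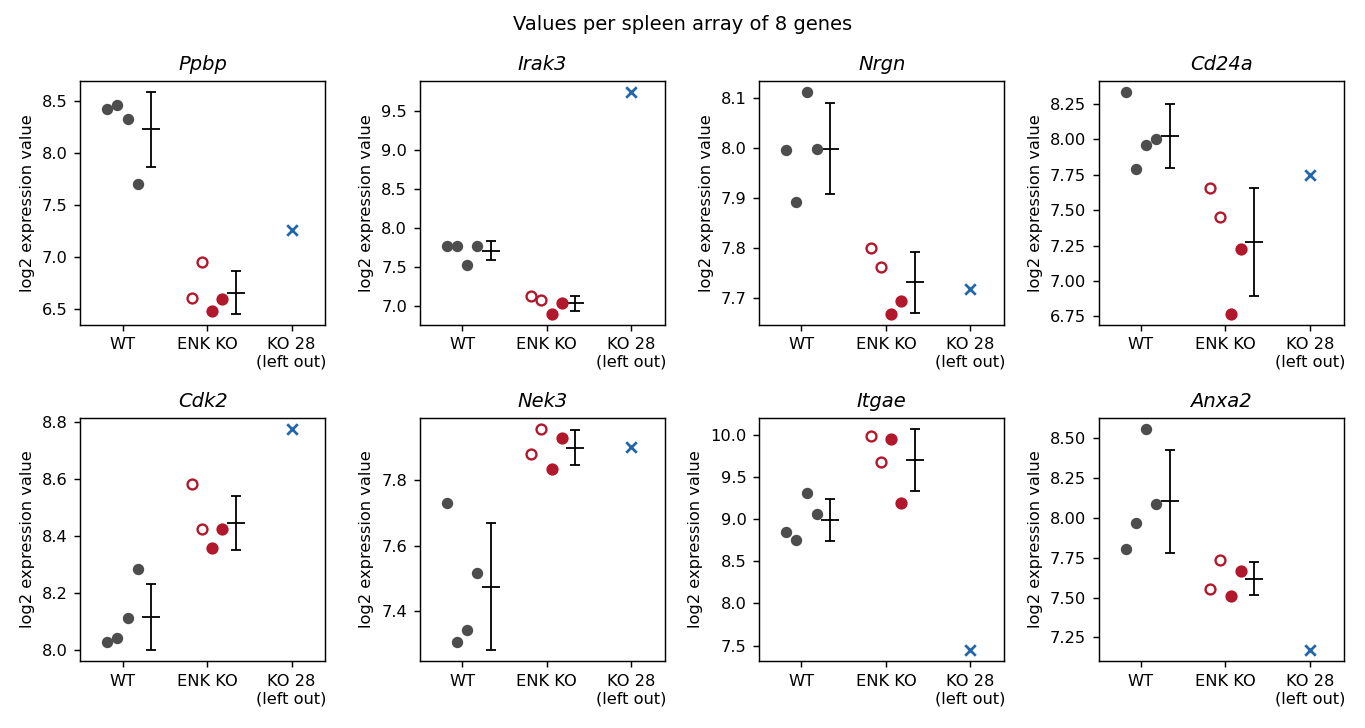
Log2 expression value (vertical) of 8 genes on each spleen array, with WT in grey, ENK KO 3 and 6 (2 months) as open red circles, ENK KO 25 and 31 as filled red circles, and ENK KO 28, left out of the comparison, as a blue cross; the bar beside each group is its mean with SD (n = 4). Ppbp, Irak3, Nrgn, Cd24a and Anxa2 have all 4 ENK KO arrays below WT, Cdk2 and Nek3 have all 4 above, and in Itgae 1 ENK KO array lies within the WT range.

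By the rule for named genes, the 10 genes per direction with the smallest unadjusted p among those without overlap were taken. Their groups had to differ by that choice, so the values are a description. Groups without overlap occurred for 291 genes above (2.31%) and 183 below (1.45%), 474 in all (3.76%). All 18 beside Ppbp and Irak3 had an adjusted p of 0.627.

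The 10 higher ones differed by 0.18 to 0.43. Nek3, a NIMA-related kinase, was at 7.73, 7.31, 7.34 and 7.52 in WT and at 7.88, 7.96, 7.83 and 7.93 in ENK KO, a difference of 0.43 (SE 0.09). Cdk2, the kinase of the passage from G1 to S phase, was at 8.03, 8.04, 8.11 and 8.28 in WT and at 8.58, 8.43, 8.36 and 8.43 in ENK KO, a difference of 0.33 (SE 0.07). In both genes the WT arrays spread more widely than the ENK KO arrays.

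Mcts2, a retrogene copy of a translation factor gene, differed by 0.36 and Zfp607a, a zinc finger protein, by 0.29. Spopl, an adaptor of Cullin-3 ubiquitin ligases, differed by 0.24 and Hells, a chromatin remodeller needed for DNA methylation, by 0.22. Xiap, an inhibitor of caspases encoded on the X chromosome, differed by 0.21, and Inpp4b, a phosphatase of phosphoinositides, by 0.20. The last 2 were Zdhhc20, a protein palmitoyltransferase, at 0.21, and Atf7ip, a partner of the histone methyltransferase SETDB1, at 0.18. Zdhhc20 had 2 further probe sets with lower levels, which differed by -0.05 and -0.20, so its direction depends on the probe set.

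The 8 lower genes beside Ppbp and Irak3 differed by -0.20 to -0.39. Mapk11, which encodes p38 beta, was at 9.29, 9.18, 9.33 and 9.14 in WT and at 8.75, 8.76, 8.77 and 9.09 in ENK KO. ENK KO 31 stood close to WT and the other 3 about equally far below, with a mean difference of -0.39 (SE 0.09). Tmem159, a protein of lipid droplets, differed by -0.37 and Olfr316, an olfactory receptor gene, by -0.34. Nrgn, which encodes the calmodulin-binding protein neurogranin of brain and platelets, differed by -0.27. Capza2, which caps actin filaments, and Coro1c, a coronin that binds them, differed by -0.23 and -0.22. Cox20, an assembly factor of cytochrome oxidase, differed by -0.22 and Snrpa, the A protein of the U1 splicing particle, by -0.20.

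The engrailed core TAATTA, searched on both strands of the 250 bases before the start site, occurred in 1 of the 18 of these 20 genes with a RefSeq window (5.56%), Nek3, against 5.65% of all genes with a window.

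Genes that mark other cells were counted apart from T cell genes. The 14 marker lists of other cells hold 206 genes, of which 101 were tested, and 0 of them were higher and 13 (12.9%) lower at an unadjusted p under 0.05, against 3.95% and 3.68% of all genes. The difference was below 0 for 72 of the 101, against 52.8% of all genes, and the median was -0.08, against -0.01 for all genes. The 20 T cell lists hold 421 genes, of which 364 were tested, with 17 higher and 17 lower (9.34% together, against 7.63%) and a median of 0.00. All ENK KO arrays lay below all WT arrays in 5 of the 101 and above in 0, against 1.45% and 2.31% of all genes. Among the 364, 6 lay above and 5 below. The counts by list that follow are read against the same shares of all genes, 3.95% higher and 3.68% lower at p under 0.05 and 52.8% below 0. A marker could enter the test through its level in 1 group alone, and many markers did not reach the filter, so these counts describe the markers that were measurable. In bulk RNA, fewer cells of a type and less RNA per cell cannot be told apart.

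Among the lists of other cells, platelet and megakaryocyte markers had the most members at that level. Of 22 listed, 11 were tested, 9 were below 0 and 4 were lower at p under 0.05. These were Ppbp, Nrgn (-0.27), Treml1, a receptor of platelet alpha granules (-0.12), and Gp9, a subunit of the receptor for von Willebrand factor (-0.13). Itga2b, the integrin chain that defines the lineage, differed by 0.01, with WT between 7.66 and 7.83 and ENK KO between 7.69 and 7.90. The mean deviation of the 11 from their WT mean was 0.03, 0.02, -0.02 and -0.03 in WT and -0.28, -0.14, -0.26 and -0.18 in ENK KO. The groups did not overlap in it, but Ppbp is part of this mean and had by far the largest difference. Its difference was -1.56, where the median of the 11 was -0.12. On ENK KO 3, 6, 25 and 31, 8, 4, 7 and 2 of the 11, Ppbp among them, were below every WT array. A mean without Ppbp was not computed, so the separation is not read as one of the other markers. With the mean level of all measured platelet markers as a covariate, Ppbp differed by -0.91, with an adjusted p of 1.00. That covariate contains Ppbp and did not overlap between genotypes. The fit therefore shrinks the difference by its construction and cannot separate Ppbp from platelet content.

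Of 24 listed red cell markers, 8 were tested. All 8 were below 0 (52.8% of all genes), and 2 were lower at p under 0.05 (3.68% of all genes): Car2, a carbonic anhydrase (-0.36), and Slc4a1, the anion exchanger of the red cell membrane (-0.37). Fech, which inserts iron into haem, differed by -0.12. Alas2, the first enzyme of haem synthesis in erythroid cells, was at 8.84, 8.39, 8.44 and 9.09 in WT and at 8.30, 8.81, 7.26 and 8.06 in ENK KO. Its lowest value was that of ENK KO 25, the groups overlapped, and the difference was -0.58 (SE 0.30). On the thymus arrays Alas2 was lower than in spleen, at 6.56 to 6.92. Car2 was higher there, at 8.50 to 9.67, against 6.98 to 7.74 in spleen, and differed by -0.87. The level of Car2 is therefore not read as one of red cells alone. The globin genes are read only by probe sets that carry several gene names and were not tested. Without WT 34 the count lower at p under 0.05 was 0 of 8 (3.11% of all genes in that fit). It was also 0 with the platelet mean as a covariate (2.42%). The count was 3 without the 2-month-old animals (2.69%), 4 without ENK KO 6 (3.93%) and 5 with the shared spread (5.33%).

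B cell markers were low on ENK KO 25 and 31 and not on ENK KO 6. Of 22 listed, 14 were tested, 10 were below 0 and 1 was lower at p under 0.05, Pou2af1, a coactivator of B cell transcription (-0.15). Cd79a, a signalling chain of the B cell receptor, was at 8.15, 7.47, 7.77 and 7.49 in WT and at 7.33, 7.82, 6.09 and 6.92 in ENK KO. ENK KO 6 lay within the WT range and ENK KO 25 far below it, so the difference of -0.68 (SE 0.33) did not exceed the spread. Ms4a1, which encodes CD20, differed by -0.55 with the same order of the ENK KO arrays, and Spib, a B lineage Ets factor, by -0.36. Above 0 were the other 4 of the 14, by up to 0.70, and 0 of these stood at p under 0.05. The mean deviation of the 14 from their WT mean was -0.21 to 0.20 in WT and -0.14, 0.26, -0.52 and -0.31 in ENK KO 3, 6, 25 and 31. On these ENK KO arrays 8, 0, 11 and 10 of the 14 were below every WT array. The count lower at p under 0.05 was 9 without ENK KO 6 (3.93% of all genes in that fit) and 10 without both 2-month-old animals (2.69%).

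MHC class II genes, which B cells, dendritic cells and macrophages express, were also low on ENK KO 25 and 31. On ENK KO 3 they differed from B cell markers, with 1 of 8 below every WT array. H2-Aa, the alpha chain of I-A, was at 9.42, 8.70, 8.70 and 8.77 in WT and at 8.70, 8.70, 7.34 and 7.80 in ENK KO. The 2-month-old arrays equalled the lower WT arrays, and ENK KO 25 and 31 lay below all others. The difference was -0.76 (SE 0.32), the only one of 8 tested members at p under 0.05. The invariant chain Cd74 differed by -0.66, H2-Ab1 by -0.55 and H2-Eb1 by -0.37. Without the 2-month-old animals 5 of the 8 were lower at p under 0.05, against 2.69% of all genes, and the median difference was -0.93 in place of -0.39. Age, sex and the level of the MHC class II genes moved together within ENK KO, and cannot be told apart.

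**Figure D3:**
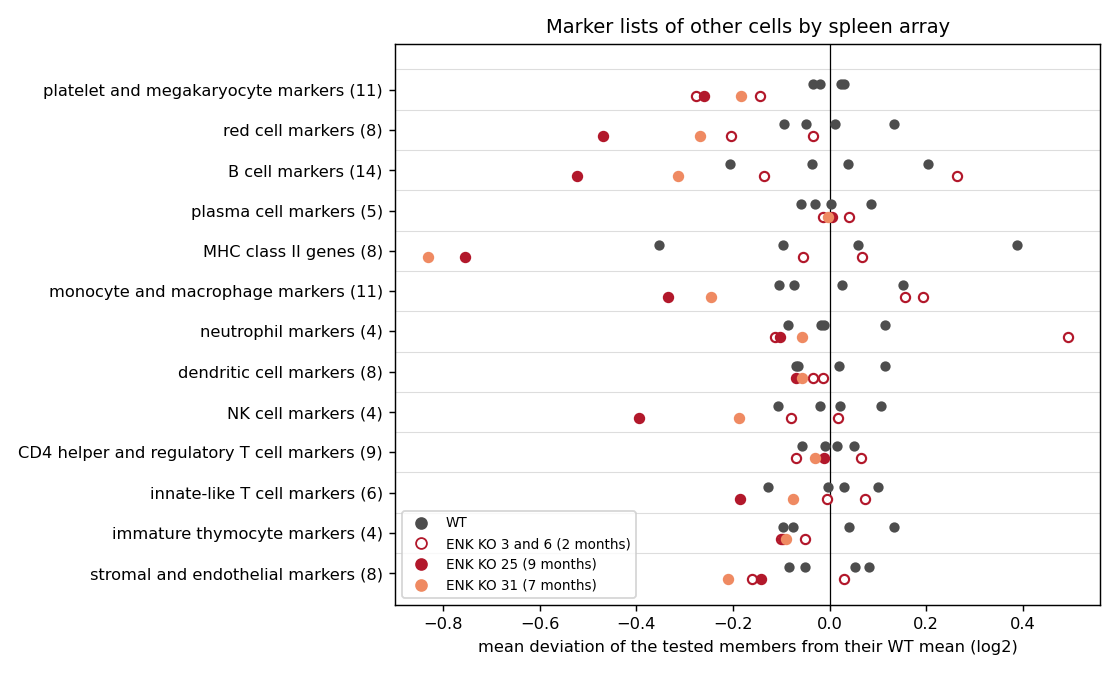
Mean deviation of the tested members of each marker list from their WT mean (horizontal, log2) on each spleen array, WT above and ENK KO below in each row, with the number of tested members in brackets. Platelet markers of all 4 ENK KO arrays lie left of WT, in a mean that includes Ppbp. B cell and MHC class II points of ENK KO 25 and 31 lie far left, while those of ENK KO 3 and 6 do not. ENK KO 6 stands out in neutrophil markers.

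Neutrophil markers were high on 1 array: S100a8, a calcium-binding protein of neutrophils, was at 7.62 on ENK KO 6 and between 5.38 and 5.59 on the other 7, and S100a9, its partner, at 8.02 against 7.04 to 7.51. Lyz2, the lysozyme of myeloid cells, was also highest there, at 8.18, and Csf1r was not. Among 4 tested NK cell markers, the integrin chain Itga2 was lower at p under 0.05 (-0.28), the median was -0.21 with ENK KO 25 lowest in the list's mean deviation (-0.40), and Ncr1, an activating receptor that defines the lineage, was at most 5.32 on every array. Of 9 tested markers of CD4 helper and regulatory T cells, Tnfrsf18, which encodes GITR, and Zbtb7b, the factor that commits cells to the CD4 lineage, were lower at p under 0.05 (both -0.28). Foxp3 differed by -0.01.

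Of 8 dendritic cell markers, Zbtb46, a transcription factor of conventional dendritic cells, was lower at that level (-0.12), and Itgax, which encodes CD11c, differed by 0.08. Gata2, the only mast cell and basophil marker tested, differed by -0.12. Plasma cell markers (5 tested), innate-like T cell markers (6), immature thymocyte markers (4) and stromal and endothelial markers (8) had 0 members at p under 0.05.

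Among T cell genes, those of the receptor itself differed little. Of 14 tested members of the receptor complex and coreceptors, 1 was lower at p under 0.05, and the median was -0.03. That was Cd28, the main costimulatory receptor, at 11.45, 11.80, 11.68 and 11.31 in WT and 10.79, 10.78, 10.78 and 11.70 in ENK KO. ENK KO 3, 6 and 25 were nearly equal and below all WT arrays, and ENK KO 31 was within the WT range, for a difference of -0.55 (SE 0.21). Of 25 signalling genes behind the receptor, Rasgrp1, which activates Ras, was higher (0.16) and the kinase Txk lower (-0.14) at p under 0.05.

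Immediate early genes had the lowest median of the T cell lists, -0.31 over 23 tested members, of which 21 were below 0 and 0 passed p under 0.05. Dusp1, a phosphatase of MAP kinases, was at 12.36, 12.54, 12.55 and 11.98 in WT and at 10.85, 10.63, 11.12 and 12.92 in ENK KO 3, 6, 25 and 31. ENK KO 31 had the highest value of all 8 arrays and the other ENK KO arrays the 3 lowest, so the difference of -0.98 had an SE of 0.45. Dusp5, a phosphatase specific for ERK, followed with -0.79, Cd69, the early activation antigen that holds T cells in tissue, with -0.78, and Nfkbia, an inhibitor of NF-kappa B, with -0.31. Fos, named after its values were seen, was at 9.04, 9.16 and 9.35 on ENK KO 3, 6 and 25, at 11.03 on ENK KO 31 and between 10.21 and 10.85 in WT.

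The order of the arrays held over the list. On ENK KO 3, 19 of the 23 genes were below the lowest WT array, on ENK KO 6 16, on ENK KO 25 8 and on ENK KO 31 1, and ENK KO 31 had 7 above the highest WT array. The mean deviation from the WT mean was -0.74, -0.67, -0.31 and 0.25 on these arrays, and -0.21, 0.23, 0.28 and -0.30 on WT 22, 34, 37 and 40. WT arrays thus also differed among themselves in these genes. Without ENK KO 31 the count lower at p under 0.05 was 12 of 23, in a fit in which 1271 of all genes (10.1%) stood at that level and 5.66% were lower. Without the 2-month-old animals the count was 0 with a median of -0.02.

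**Figure D4:**
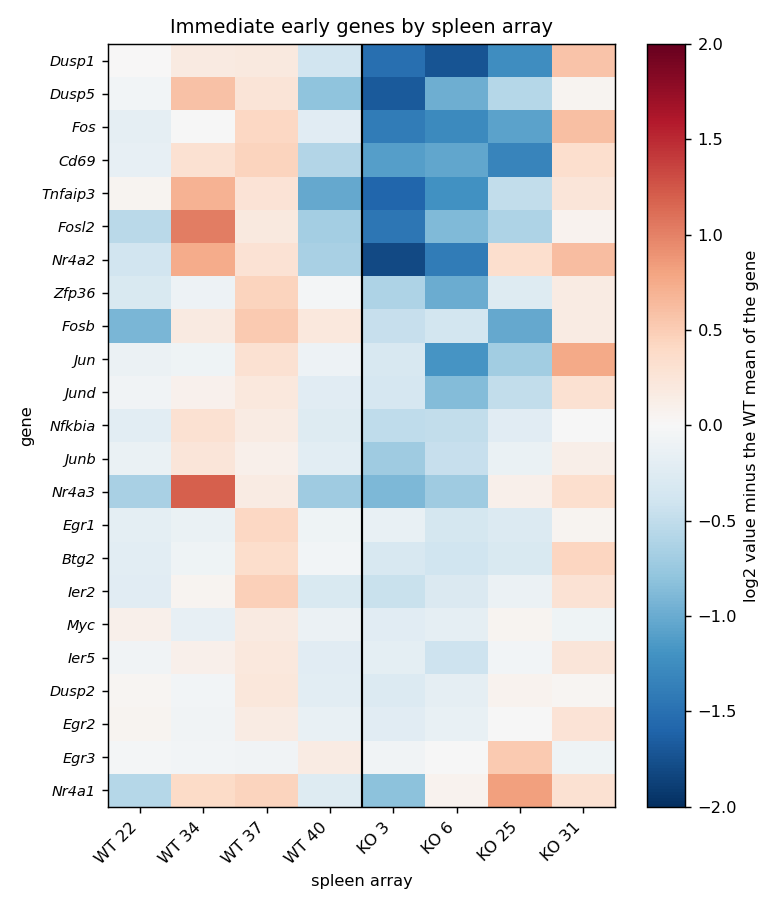
Heat map of the 23 immediate early genes (vertical) on the 8 spleen arrays (horizontal), coloured by log2 value minus the WT mean of the gene; the black line separates WT from ENK KO. ENK KO 3 and 6 are blue in most rows, ENK KO 25 in part, and ENK KO 31 is near white or red like WT 34 and 37.

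The 250 bases before the start site of Dusp1, the gene with the smallest p of this list, are shown because TGACG, the first bases of the cAMP response element TGACGTCA, is frequent in the list. The sequence is from RefSeq (GRCm38.p6), minus strand, chr17:26508473-26508722, and the capitals mark TGACG on either strand; the second run in capitals is 2 overlapping matches that form the full element.
Dusp1: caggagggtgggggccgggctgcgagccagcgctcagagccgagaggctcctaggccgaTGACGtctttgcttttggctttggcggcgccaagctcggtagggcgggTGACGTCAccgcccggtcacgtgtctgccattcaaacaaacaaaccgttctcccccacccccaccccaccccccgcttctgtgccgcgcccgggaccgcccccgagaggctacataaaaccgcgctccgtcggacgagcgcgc

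TGACG occurred on either strand in 11 of 18 immediate early genes with a window (61.1%), against 19.8% of all genes with a window. The full element occurred in 2, Btg2 and Dusp1, against 1.77% of all genes. These are matches of letters, and the factor that binds them was not measured.

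Effector and memory genes were mostly below 0 and spread widely among ENK KO arrays. Of 34 tested members, 27 were below 0 (52.8% of all genes), 3 were lower and 0 higher at p under 0.05 (3.68% and 3.95% of all genes), and the median was -0.12. Anxa2, a membrane-binding annexin that rises with T cell memory, was at 7.81, 7.97, 8.56 and 8.09 in WT and 7.56, 7.74, 7.51 and 7.67 in ENK KO. It was the one member without overlap, with a difference of -0.49 (SE 0.15). S100a6, a calcium-binding protein, differed by -0.56 and Ccr2, a receptor for inflammatory chemokines, by -0.31, both at p under 0.05. Klrc1, which encodes the inhibitory receptor NKG2A, was at 8.61 to 9.94 in WT and 6.75, 8.28, 7.97 and 9.20 in ENK KO, a difference of -1.08 (SE 0.48). Gzma, the granzyme A gene, was named after its values were seen: it was at 9.37 on ENK KO 31 and between 6.40 and 7.56 on the other 7.

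The mean deviation from the WT mean was -0.64, -0.19, -0.33 and 0.29 on ENK KO 3, 6, 25 and 31 and -0.18 to 0.32 in WT, so ENK KO 31 lay within the WT range and the other 3 below it. Without ENK KO 31, 10 of 34 were lower at p under 0.05 (5.66% of all genes in that fit), with a median of -0.26. With the mean of the MHC class II genes as a covariate 12 were lower (4.81% of all genes), and with the platelet mean as a covariate 0 (2.42%). Of 15 tested naive and central memory genes, 0 stood at p under 0.05, and the median was 0.04. Ccr7, the receptor that brings T cells into lymph nodes, differed by -0.21 with no overlap between groups, and S1pr1, the egress receptor, by -0.17.

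Among 9 inhibitory receptors and ectonucleotidases, Ctla4, the receptor that competes with CD28 for its ligands, was at 9.03, 9.46, 8.93 and 8.30 in WT and 7.24, 7.06, 7.42 and 8.98 in ENK KO. Again ENK KO 31 was inside the WT range and the other 3 were below it. The difference was -1.25 (SE 0.42) and the only one of the 9 at p under 0.05. Without ENK KO 31 it was -1.69 with a limma adjusted p of 0.123.

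Transcription factors of T cell fate had 3 of 20 tested at p under 0.05 in either direction, against 7.63% of all genes, and a median of 0.00. ENK KO 3 and 6 deviated from the WT mean of the list by -0.15 and -0.13, below the WT arrays at -0.07 to 0.06. At p under 0.05, Irf8, an interferon regulatory factor shared with B and myeloid cells (-0.26), and Nfil3, a bZIP factor (-0.69), were lower, and Ikzf3, which encodes Aiolos, was higher (0.18). Nfil3 was at 7.67, 7.79 and 8.04 on ENK KO 3, 6 and 25 and at 8.96 on ENK KO 31, with WT between 8.50 and 9.05. Irf4, induced by receptor signals, differed by -0.68 and did not reach that level.

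**Figure D5:**
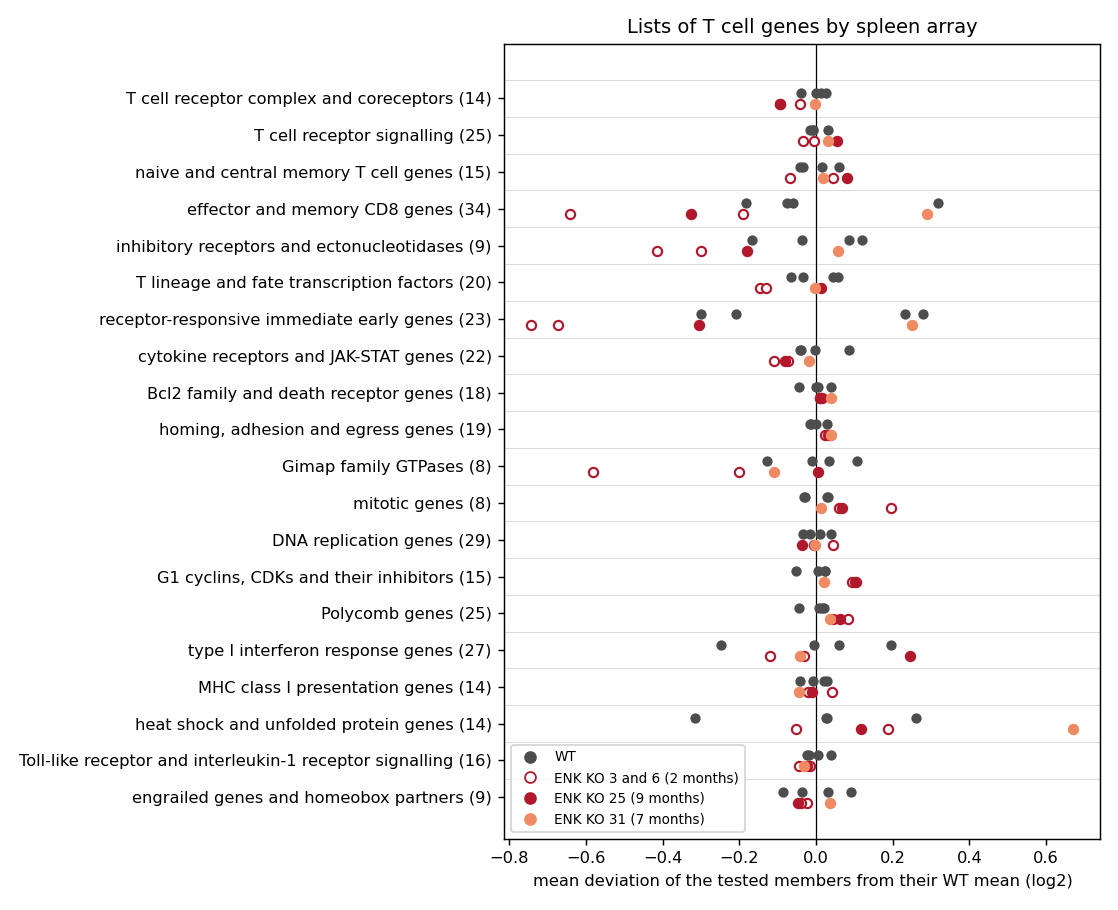
Mean deviation of the tested members of each T cell list from their WT mean (horizontal, log2) on each spleen array, WT above and ENK KO below in each row, with the number of tested members in brackets. ENK KO 3 and 6 lie left of WT in immediate early genes and inhibitory receptors, ENK KO 31 lies within the WT points in both, and lists such as receptor signalling, Polycomb and homing genes stay within about 0.1 of WT.

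Homing, adhesion and egress genes had 1 member of 19 at p under 0.05. Itgae, the integrin chain CD103 that binds E-cadherin, was at 8.85, 8.76, 9.32 and 9.06 in WT and 9.68, 9.96 and 9.19 in ENK KO 6, 25 and 31, with ENK KO 3 above these. ENK KO 31 was again the array within the WT range, and the difference was 0.71 (SE 0.19).

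Cytokine receptor and JAK-STAT genes had 3 of 22 lower and 1 higher at that level (3.68% and 3.95% of all genes). Socs1 and Socs3, both feedback inhibitors of cytokine signals, differed by -0.18 and -0.39, and Il15ra, which presents interleukin-15, by -0.15. Tgfbr1, a receptor chain for TGF-beta, was the higher one, at 0.17. All 4 genes overlapped between the groups. Socs3 had a further probe set with a lower level, which differed by 0.07, so its direction depends on the probe set.

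Genes of the cell cycle showed small differences. Of 15 tested G1 cyclins, CDKs and their inhibitors, Cdk2, Cdk6 (0.21) and Ccne1 (0.30), the cyclin that activates Cdk2, were higher and Cdk4 (-0.10) was lower at p under 0.05 (3.95% and 3.68% of all genes). ENK KO 3, 6 and 25 deviated from the WT mean of the list by 0.09 to 0.10, and ENK KO 31, at 0.02, lay within the WT range. With ENK KO 28 in the fit Cdk6 differed by -0.01. Of 29 replication genes, the polymerase subunit Pole (0.18) and the thymidylate synthase Tyms (0.20) were higher and the clamp loader subunit Rfc5 (-0.16) lower. Of 24 mitotic genes 8 reached the filter, all above 0, with a median of 0.08, and Plk1, a kinase of mitotic entry, was higher at p under 0.05 (0.19).

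Polycomb genes had 3 of 25 tested members higher and 0 lower at p under 0.05 (3.95% and 3.68% of all genes). Ezh2, the methyltransferase of histone H3 lysine 27, was at 8.97, 8.81, 8.89 and 9.16 in WT and 9.48, 9.37, 9.42 and 9.02 in ENK KO. ENK KO 3, 6 and 25 were above all WT arrays and ENK KO 31 was within the WT range, for a difference of 0.37 (SE 0.11). Asxl1, a partner of the histone H2A deubiquitinase, differed by 0.16 with no overlap and Rnf2, the ubiquitin ligase that acts on H2A, by 0.15. The list median was 0.03.

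Of 18 tested genes of the Bcl2 family and of death receptors, Xiap (0.21) and Cflar, an inhibitor of caspase-8 activation (0.19), were higher at p under 0.05 and both had no overlap. Further probe sets of Cflar, with lower levels, differed by 0.24 and -0.05. Xiap was at 8.50 to 8.58 in WT and at 8.87, 8.80, 8.65 and 8.75 in ENK KO 3, 6, 25 and 31. The females among ENK KO, 3 and 6, thus had the highest values. The X-linked genes Kdm6a and Kdm5c, which escape inactivation and served as a check of sex, differed by 0.38 and 0.24.

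Gimap genes, GTPases that sustain the survival of T cells, had 7 of 8 members below 0 and a median of -0.21, with 1 lower at p under 0.05, Gimap9 (-0.21). Gimap7 was at 9.02, 9.55, 9.80 and 9.49 in WT and 7.97, 9.05, 9.27 and 9.25 in ENK KO, with ENK KO 3 lowest by more than 1 unit, and differed by -0.58 (SE 0.29). Gimap6 differed by -0.37. The median without the 2-month-old animals was -0.04.

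Of 27 interferon response genes, Isg20, an RNase, was lower (-0.25) and Trim30a, a regulator of innate signals, higher (0.12) at p under 0.05. On ENK KO 3, 6, 25 and 31, 0, 1, 15 and 1 of the 27 were above every WT array. The mean deviation from the WT mean was 0.24 on ENK KO 25, against -0.25 to 0.19 in WT. Of 14 genes of MHC class I presentation, Tapbp, which encodes tapasin, was lower (-0.11). Of 9 engrailed and partner homeobox genes, Pknox1, a TALE homeobox factor, was higher (0.14).

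Hspa1a, an inducible heat shock gene, had the largest difference above 0 of all T cell list members, 1.90, with an SE of 0.87. It was at 7.67, 8.37, 9.76 and 8.90 in WT and 10.57, 8.43, 10.22 and 13.06 in ENK KO. ENK KO 31 had by far the highest value and ENK KO 6 lay inside the WT range, and without ENK KO 31 the difference was 1.06. Of the 14 tested heat shock and unfolded protein genes, 11 were above 0 and 0 stood at p under 0.05. The mean deviation from the WT mean was 0.67 on ENK KO 31, against -0.32 to 0.26 in WT.

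Several genes outside the lists were chosen after their values were seen, as those at p under 0.05 with large differences, so they are descriptions. Cd24a, a surface glycoprotein abundant on B cells and immature T cells, was at 7.79 to 8.33 in WT and at 7.66, 7.45, 6.77 and 7.23 in ENK KO. Its groups did not overlap, the difference was -0.74 (SE 0.19), and ENK KO 25, lowest here, was also lowest in B cell markers.

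Lilr4b and Lilrb4a, neighbouring receptor genes of the leukocyte immunoglobulin-like family, differed by -1.80 and -1.24. Lilr4b was at 7.92, 10.08, 9.85 and 8.50 in WT and 5.96, 7.39, 7.05 and 8.75 in ENK KO, so that WT spread over more than 2 units. As near-identical copies they can share probes, and their values may not be separate. Bhlhe40, a transcription factor induced by stimulation, differed by -0.97 and Gpr183, a receptor for oxysterols, by -0.70. In both, ENK KO 3, 6 and 25 lay below all WT arrays and ENK KO 31 within their range. Tgfbr3, a coreceptor for TGF-beta, differed by 0.59 and Klrb1f, a lectin-like receptor, by 0.70, and ENK KO 31 was the lowest ENK KO array in both.

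The same contrast in thymocytes carrying both CD4 and CD8 takes its differences from other arrays, 3 WT and 2 ENK KO. Of these, 1 ENK KO animal was again a 2-month-old female. The thymus SE and p come from the fit of all 13 arrays, so they also hold the spread of the spleen arrays. The difference between the effects was tested with limma over 13324 genes on 13 arrays, and 1 gene (0.00751%) passed, Slc7a11, which was not among those named for spleen. At an unadjusted p under 0.05 stood 488 (3.66%).

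Ppbp was near background in thymus, at 5.18, 5.31 and 5.24 in WT and 5.19 and 5.12 in ENK KO, and differed by -0.08 (SE 0.19). Its spleen difference exceeded that by -1.48 (SE 0.24; limma adjusted p = 0.262), and without WT 40 of spleen this passed. Irak3 differed by -0.13 (SE 0.09) in thymus, at levels of 7.16 to 7.47, and the difference between tissues was -0.53 (adjusted p = 0.834). A spleen-specific difference was therefore not shown for either.

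Of the 20 genes named by the smallest p, 17 had the same sign in thymus (85.0%), against 62.9% of the 963 genes at p under 0.05 and 55.0% of all 12622 tested genes. Genes are not independent, and the young females are in both ENK KO groups, so these shares are given without a test. The thymus p below shares its spread with the spleen arrays, by whose p the genes were chosen. Shares that use it are therefore not independent of that choice. The same sign with an unadjusted thymus p under 0.05 was found for 5 of the 20 (25.0%), against 5.50% of the 963 and 2.55% of all tested genes: Cox20, Nek3, Mcts2, Hells and Inpp4b. Nek3 was at 7.49, 7.18 and 7.32 in thymus WT and 7.82 and 7.71 in ENK KO, a difference of 0.43, the same as in spleen. Cox20 was at 10.84, 10.86 and 10.84 in WT and 10.48 and 10.67 in ENK KO, a difference of -0.27 beside -0.22 in spleen. Inpp4b differed by 0.78 and Hells by 0.43 in thymus, more than in spleen, and Mcts2 by 0.23.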

How the data were processed

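The authors deposited log2 values, 1 per probe set and array. Per the submitters' processing notes these come from RMA, which corrects background, equalises the arrays by quantiles and sums up probes; the sources used here name no software, build or set of arrays for it, and such a step can hide a shift common to all genes. Per the labels' protocols, 300 ng of total RNA went into each labelling. Depth does not apply to arrays, and the number of arrays limits the precision.

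Of 28213 probe sets, 21640 carried 1 gene symbol, 1321 several and 5252 none in the annotation used. Symbols were looked up in a RefSeq table (GRCm38.p6), which found 21553 and changed 0. Where several probe sets read 1 of the 19937 genes, the brightest on average over the 8 arrays stood for it. A gene entered the test (12622 did) if 4 or more of the 8 arrays exceeded 6.76, the 40th percentile. limma 3.58.1 under R 4.3.3 fitted a mean per genotype, with eBayes and a trend, with Benjamini-Hochberg adjustment across the 12622 genes. The tissue comparison fitted 13 arrays. Single values of En2, En1 and Penk were compared by exact permutation. Fits were tested on simulated data.

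Named genes were the 10 per direction with the largest difference past the threshold, or, as here, the smallest p among those without overlap between genotypes; a list is described by its 4 members of smallest p or fewer, a fixed set of marker genes was always named, except 1 that is not reported here, and predicted genes were not named. The arrays, gene lists and alternatives were chosen with earlier results of these data known. The lists number 35, and 1 of them is a check of sex. Promoter windows are the 250 bases before the RefSeq start site. The alternatives covered filters, normalization, probe sets, variance models, array weights, array 28, age, sex, marker means as covariates and each array left out. The fits with MHC class II or immediate early means and the shared spread with array 28 were added after seeing the data.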

Additional observations from a re-analysis of the deposited data

Results flagged for a closer look

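In groups of 4 arrays, a value was picked out where its gap to the nearest other array took up more of the group's range than Dixon's critical value allows at the 95% level. This was applied to 280 groups (genes named here and means over all measured members of a list), of which 23 were picked out, and chance alone picks out about 1 in 20 groups.

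Array ENK KO 31 gave 7 of them. It stood high in Mapk11 (9.09), Cd28 (11.70), Cd69 (12.20), Gimap9 (10.09), Bhlhe40 (8.49) and the mean of engrailed genes and homeobox partners (7.84), and low in Pole (7.77). Cd28, Cd69, Bhlhe40 and Gimap9 of this array were within the range of the WT arrays. WT 22 gave 7 as well and stood high in H2-Aa (9.42), Cd74 (10.08), H2-Eb1 (9.60) and S1pr1 (12.31) and low in Car2 (7.26), Pknox1 (8.95) and Kdm5c (9.72).

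The neutrophil marker mean (7.11) and S100a8 (7.62) were high on ENK KO 6, and Csf1r (6.81) was high and Il15ra (8.38) low on ENK KO 3. Mcts2 (9.96) was low on ENK KO 25. Among WT arrays, Ccr7 (13.09) was high and Cdk6 (9.60) low on number 34, Gzma (7.40) was high on number 40, and Irak3 (7.53) was low on number 37, nearest to ENK KO, so that without it the adjusted p of Irak3 was 0.0338.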

How the results depend on the processing

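No paired analysis was possible because no replicate number occurred in both genotypes. Under 28 alternatives, the count of genes with an adjusted p under 0.05 (limma) was 0 except as follows. It was 1 lower gene with array weights (Ppbp), 2 with a spread shared with thymus (Ppbp and Irak3), 1 when array 28 was added to that fit (Ppbp) and 1 with the MHC class II mean as a covariate (Stc2). Leaving out each array gave 0 to 1 (Irak3 without WT 37, Ppbp without WT 40). Taking genes by a 1.5-fold difference and an unadjusted p under 0.05 in place of the adjusted p gave 9 higher and 18 lower.

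The count at an unadjusted p under 0.05 was 617 without the 2-month-old animals, 635 with that age as a covariate, 499 among males and 473 with the platelet mean as a covariate, against 963. It was 1221 with median centring, 1252 with the shared spread and 1336 of 19937 genes with no filter, and 678 to 1271 as each array was left out, highest without ENK KO 31. Median centring moved the median of all genes from -0.01 to 0.03. The count of genes whose effect differed between tissues was 0 with no filter and 0 to 3 as each array was left out (0, 1, 2 or 3).

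With the platelet mean as a covariate, which does not overlap between genotypes, these differences turned sign: Gp9 0.069, Slc4a1 0.030, Alas2 0.36, Spib 0.089, Cd79a 0.55, Ms4a1 0.48, H2-Aa 0.12, Cd74 0.27, H2-Ab1 0.17, H2-Eb1 0.33, S100a6 0.042, Txk 0.026, Rnf2 -0.093, Hspa1a -0.63, Tlr7 -0.088, Zbtb7b 0.059 and Zbtb46 0.0021. With array 28, Cdk6 was -0.015, Zbtb7b 0.28 and Penk 0.064. Zdhhc20 was -0.013 as the mean of its probe sets and En1 -0.0078 among the arrays labelled male. As each array was left out, En2 ranged from -0.17 to 0.42 and Penk from -0.19 to 0.016. The platelet mean contains Ppbp and Gp9 themselves. The cause of these changes of sign was not tested. Irak3 and Ppbp were below 0 under the 27 alternatives in which they were tested. The filter at the 60th percentile left both untested. With 4 arrays a group, a p that misses the threshold does not show equal levels.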
